A study of Mus musculus with 12 samples.

Results

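The genes H2afy, H2afy2, H2afz, H2afv, H2afx, H1f0 and H1fx encode variants of the core histone H2A and of the linker histone H1, and their transcripts were followed in mouse fibroblasts that were being reprogrammed to pluripotent stem cells. They were taken by symbol, as a gene family and not by a threshold on any value, although earlier results of these data were known, and make up 7 of the 24098 genes in the expression table. All 7 passed the minimum of 1 FPKM in at least 1 library, as did 14178 genes in all, and the lowest value of any of the 7 was 7.93 FPKM (fragments scaled to transcript length and to the mapped fragments of the library). FPKM is per transcript length, which puts different genes on a common scale. Reads can still be lost to a different extent for each gene, as given below for H2afx and H2afz. Comparisons between genes are therefore approximate.

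The study sequenced mRNA from 12 conditions with 1 library each. Mouse embryonic fibroblasts (MEFs) with GFP at Oct4 received the OSKM factors (Sox2, Klf4, Oct4 and c-Myc) from pMXs retroviruses and from then on were kept, per the labels, in FF medium, a serum replacement medium with LIF, basic FGF, ascorbic acid and the GSK3 inhibitor CHIR99021. D0 is the day 0 sample, which the labels call WT, and D3 holds unsorted cells of day 3 after OSKM. On days 6 and 9, Thy-1, which fibroblasts carry on their surface, was used to split the culture into negative (D6T-, D9T-) and positive cells (D6T+, D9T+). On days 12 and 16, SSEA-1, a carbohydrate on mouse pluripotent cells, split it into positive (D12S+, D16S+) and negative cells (D12S-, D16S-). The study treats D6T-, D9T-, D12S+ and D16S+ as the successful route and the other 4 fractions as the unsuccessful one. The end points were fully reprogrammed iPSCs and the D3 line of mouse embryonic stem cells (mESCs), grown in FF medium per the labels, while the methods of the study also name other media with serum or serum replacement for such cells. The reporter and the fibroblast origin are thus shared by all libraries but that of mESCs. The number of iPSC lines and of MEF preparations was not given in the sources used here, and retroviral integration differs from cell to cell, so each library is the average of a mixed population.

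Histone variants replace the canonical histones in a part of the nucleosomes. MacroH2A, encoded by H2afy (macroH2A1) and H2afy2 (macroH2A2), carries a large globular macro domain behind the histone fold, marks the inactive X chromosome and silent genes, and is known as a barrier to reprogramming. H2A.Z, encoded by H2afz (H2A.Z.1) and H2afv (H2A.Z.2), lies beside the start sites of active and poised genes and is needed in early development. H2A.X, encoded by H2afx, is phosphorylated around DNA breaks. Linker histones bind where DNA enters and leaves the nucleosome and compact the fibre: H1f0 encodes H1.0, which builds up in cells that stop dividing and differentiate, and H1fx encodes H1.X, a divergent linker histone. Messages of replication-coupled histone genes end in a stem loop without a poly(A) tail, so poly(A)-selected libraries hold few of them. The variant genes make polyadenylated messages, and H2afx is known to make both forms.

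Each condition had 1 library, so no difference here has a replicate check, no test was made and no p-value is given. The error of a value is the interval that cuffdiff, the authors' quantification tool, deposited with it. It is modelled and holds no measured spread between cultures. The intervals were wide: over the 84 values of the 7 genes (7 genes in 12 libraries) the median half-width was 96.8% of the FPKM, and 37 had a lower end of 0. Ranking the 12 libraries by level, all 11 of 11 neighbouring pairs overlapped in their intervals for every one of the 7 genes, and 0 of 66 pairs of libraries lay apart. The order of the levels is therefore a description. Such overlaps were not counted over all genes, so they are not read as a trait of these 7. Differences are given as differences of log2(FPKM + 1), and a gene was counted as higher or lower when it differed by at least 2-fold on that scale, which is set beside the percentage of all 14178 genes that did so in the same comparison.

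Summed over all genes, D16S+ had the lowest total (484968 FPKM) and D0 the highest (648264 FPKM). Sequencing depth relative to D0, estimated from the steps of low values, was lowest in D9T+ (0.967) and highest in D6T- (1.56). Scaling all libraries to the same total moved the median gene by between 0.08 and 0.30 on the log2 scale in comparisons with D0, and the results that this ended are named beside them. Markers were read for D0, iPSCs and the Thy-1 fractions. Of 10 fibroblast markers, all 10 were lower in iPSCs than in D0 and their summed level went from 7485 to 56.3 FPKM. All 10 pluripotency markers were higher, with sums of 2.45 and 4129 FPKM. In that comparison 40.3% of all genes passed 2-fold in either direction. Thy1 was at 3.24 FPKM in D6T- and 477 in D6T+, and at 3.72 in D9T- and 491 in D9T+. SSEA-1 is a carbohydrate and could not be read from RNA. Bulk libraries cannot tell fewer cells of a type from less RNA per cell.

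Promoter sequences are shown for the pair of H2A.Z genes, which were both higher in iPSCs than in MEFs, and for H1f0, the gene with the largest difference in the other direction. They are the 250 bases before the start site from RefSeq (build GRCm38.p6, a later build than the mm9 build of the expression table), written 5' to 3' on the strand of the gene, and capitals mark CCAAT boxes read on either strand (CCAAT or ATTGG).

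H2afz, chr3:137864237-137864486, plus strand: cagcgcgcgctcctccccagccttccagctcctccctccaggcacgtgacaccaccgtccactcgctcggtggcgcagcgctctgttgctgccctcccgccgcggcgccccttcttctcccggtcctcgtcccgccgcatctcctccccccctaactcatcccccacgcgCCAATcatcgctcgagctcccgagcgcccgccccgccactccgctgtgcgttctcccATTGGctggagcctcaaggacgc

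H2afv, chr11:6444444-6444693, minus strand: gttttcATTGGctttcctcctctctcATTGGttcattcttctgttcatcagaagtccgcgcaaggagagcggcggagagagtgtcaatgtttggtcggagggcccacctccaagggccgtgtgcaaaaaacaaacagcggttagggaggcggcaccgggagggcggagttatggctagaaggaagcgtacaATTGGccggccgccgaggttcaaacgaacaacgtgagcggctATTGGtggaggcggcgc

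H1f0, chr15:79027962-79028211, plus strand: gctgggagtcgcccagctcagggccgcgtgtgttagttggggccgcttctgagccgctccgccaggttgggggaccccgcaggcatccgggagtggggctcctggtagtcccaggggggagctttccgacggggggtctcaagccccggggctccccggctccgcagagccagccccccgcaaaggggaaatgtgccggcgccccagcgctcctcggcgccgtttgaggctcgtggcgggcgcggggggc

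A CCAAT box stood in the promoter of H2afz at -80 and -23 and in that of H2afv at -244, -224, -59 and -17 (first base, counted back from the start site). The promoters of H2afy, H2afy2, H1f0 and H1fx had none, and 33.8% of 32851 mouse promoters of the same length held at least 1. H2afx was not matched in the promoter table, so 6 of 7 genes were read. The GC box GGGCGG, also read on both strands, was found in H2afy, H2afz, H2afv and H1fx and in 32.7% of all promoters. The H1 box AAACACA, the octamer ATGCAAAT and the E2F motif TTTCGCGC were in none of the 6, and in 6.25%, 1.60% and 0.256% of all promoters. These matches describe letters in a window and are not binding sites.

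MacroH2A was examined first. H2afy, the major macroH2A gene (mm9 chromosome 13, 56174980 to 56237722, minus strand), was at 104 FPKM in D0, 90.0 in D3, 151 in D6T-, 142 in D9T-, 193 in D12S+, 164 in D16S+, 67.8 in iPSCs and 131 in mESCs, and at 105 in D6T+, 108 in D9T+, 140 in D12S- and 127 in D16S-. Its lowest level was thus in iPSCs and its highest in the SSEA-1+ cells of day 12, with a ratio of 2.84. H2afy2, the less abundant paralog (mm9 chromosome 10, 61201391 to 61246895, minus strand), was at 33.2 FPKM in D0, 13.9 in D3, 18.0 in D6T-, 10.1 in D9T-, 9.13 in D12S+, 10.4 in D16S+, 15.8 in iPSCs and 26.4 in mESCs, and at 18.1 in D6T+, 13.6 in D9T+, 9.62 in D12S- and 7.93 in D16S-. Its highest level was in D0, and it was low in the late cells of both routes.

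The macroH2A paralogs differed in when they were high. Against D0, the share of all genes past 2-fold in either direction was 14.4% in D3, 23.9% in D6T-, 27.3% in D9T-, 31.7% in D12S+, 40.9% in D16S+, 40.3% in iPSCs, 42.6% in mESCs, 9.23% in D6T+, 17.5% in D9T+, 24.5% in D12S- and 24.3% in D16S-. H2afy2 was lower than in D0 by at least 2-fold in D3, D9T-, D12S+, D16S+ and iPSCs and in D9T+, D12S- and D16S-, and the largest difference was -1.94 in D16S-. In mESCs the difference from D0 was -0.32, and in iPSCs it was -1.03. With all libraries scaled to the same total, H2afy2 did not pass in D3 (-0.94) or in iPSCs (-0.79). H2afy did not pass 2-fold against D0 in any library, with differences from -0.61 in iPSCs to 0.88 in D12S+. Scaled to the same total, it passed in D12S+ (1.22) and D16S+ (1.06), where 32.0% and 42.9% of all genes did. Between D16S+ and iPSCs, the last step of the successful route, H2afy was lower by 1.26 on the log2 scale and H2afz higher by 1.09 (0.92 with equal totals), 2 of 7 genes against 12.1% of all genes. H2afy2 accounted for 24.1% of the summed macroH2A FPKM in D0, 4.52% in D12S+ and 18.9% in iPSCs. Over the 12 libraries, the log2 levels of both genes had a Pearson's r of -0.40 and a Spearman's rho of -0.47, a description of 12 libraries that share their sources. Matches at 1 other locus of mm9 covered the whole H2afy2 coding sequence, with a highest identity of 95.9%. Further, 244 exonic bases (11.1%) of H2afy2 overlap Aifm2 on the other strand, which was at 18.3 FPKM in D0 and 29.1 FPKM in D16S-. Whether the counting used strand was not stated, so reads of both genes may not have been told apart.

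H2A.Z transcripts were the most abundant of the H2A variants in every library except mESCs. H2afz (mm9 chromosome 3, 137527451 to 137529886, plus strand) was at 194 FPKM in D0, 248 in D3, 396 in D6T-, 305 in D9T-, 362 in D12S+, 252 in D16S+, 540 in iPSCs and 402 in mESCs, and at 189 in D6T+, 251 in D9T+, 246 in D12S- and 156 in D16S-. The level in iPSCs was the highest and that of D16S- the lowest, with a ratio of 3.46. H2afv, which encodes a nearly identical protein (mm9 chromosome 11, 6327229 to 6344446, minus strand), was at 23.4 FPKM in D0, 9.94 in D3, 19.2 in D6T-, 28.3 in D9T-, 60.2 in D12S+, 60.0 in D16S+, 60.1 in iPSCs and 75.1 in mESCs, and at 16.2 in D6T+, 25.2 in D9T+, 28.7 in D12S- and 22.7 in D16S-. The SSEA-1+ cells, iPSCs and mESCs thus all lay at 60.0 FPKM or above, and the other 8 libraries at 28.7 FPKM or below.

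H2afz was higher than in D0 by 1.03 on the log2 scale in D6T-, by 0.38 in D16S+ and by 1.47 in iPSCs, and it was at 0.65 and 0.90 in D9T- and D12S+. It thus passed 2-fold at day 6 and in iPSCs, and with equal totals also in D12S+ (1.24) but not in D9T- (0.98) or D16S+ (0.80). H2afv was lower by 1.16 in D3 (0.90 with equal totals, under 2-fold) and was then higher by 1.33 in D12S+, 1.32 in D16S+ and 1.32 in iPSCs. Its share of the summed H2A.Z FPKM was 10.8% in D0, 3.86% in D3, 19.2% in D16S+ and 10.0% in iPSCs. The coding sequences of H2afz and H2afv (387 bases each, taking for H2afv an annotated transcript of the same coding length) were 79.1% identical with no shared run longer than 14 bases, which lets single reads tell them apart. Matches at 2 other loci of mm9 together covered the whole H2afz coding sequence, and the closest single match was 100% identical. Reads with more than 1 locus were removed by the authors, so the level of H2afz may be understated, by an amount that was not measured.

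H2afx, the gene of H2A.X (mm9 chromosome 9, 44142798 to 44144154, plus strand, a single exon), had the widest range of the 7 genes. It was at 102 FPKM in D0, 106 in D3, 140 in D6T-, 63.2 in D9T-, 134 in D12S+, 138 in D16S+, 252 in iPSCs and 483 in mESCs, and at 82.7 in D6T+, 51.0 in D9T+, 55.5 in D12S- and 41.3 in D16S-. Its highest level was 11.7 times its lowest, and the order ran from D16S- up to mESCs. Day 9 was low in both fractions: from D6T- to D9T- the difference was -1.13, the only 1 of 7 genes past 2-fold against 6.19% of all genes. From D9T- to D12S+ it was 1.08, and H2afv (1.06) and H1fx (1.05) were also higher, 3 of 7 against 10.3%. In the unsuccessful route the levels after day 9 lay between 41.3 and 55.5 FPKM, and D16S- was 1.28 below D0 (0.98 with equal totals, under 2-fold). A single other locus matched 46.8% of the H2afx coding sequence at up to 96.1% identity.

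Between D0 and the pluripotent end points, the linker histone genes differed in opposite directions. H1f0 (mm9 chromosome 15, 78858642 to 78860930 in the expression table) was at 80.0 FPKM in D0, 28.5 in D3, 64.3 in D6T-, 80.0 in D9T-, 68.3 in D12S+, 29.8 in D16S+, 22.5 in iPSCs and 32.2 in mESCs, and at 60.3 in D6T+, 82.1 in D9T+, 80.8 in D12S- and 62.8 in D16S-. It was therefore low in D3, D16S+ and both pluripotent end points, and between 60.3 and 82.1 FPKM in the other 8 libraries. H1fx (mm9 chromosome 6, 87930416 to 87931476, minus strand, a single exon) was at 21.1 FPKM in D0, 9.93 in D3, 24.6 in D6T-, 14.7 in D9T-, 31.6 in D12S+, 29.9 in D16S+, 38.2 in iPSCs and 78.4 in mESCs, and at 11.1 in D6T+, 16.8 in D9T+, 14.7 in D12S- and 9.86 in D16S-. Its highest level, in mESCs, was 7.95 times its lowest, in D16S-.

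**Figure D1:**
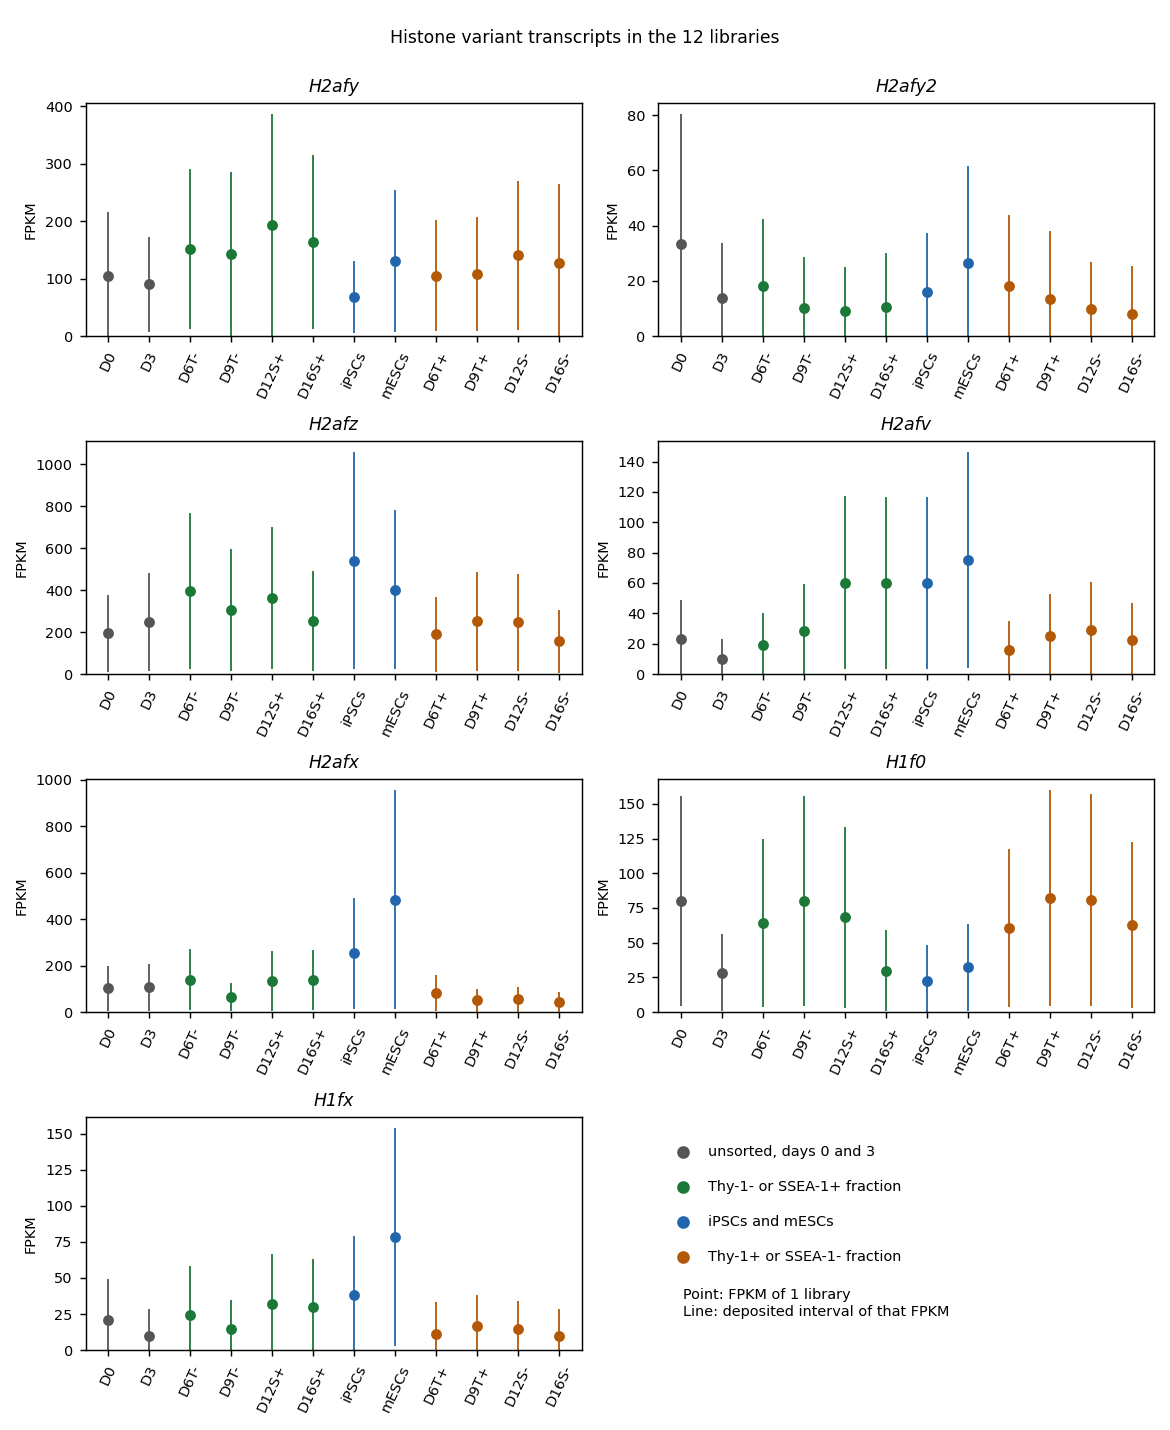
FPKM (linear axis from 0) of each of the 7 genes in the 12 libraries, with the deposited interval of each value as a line. H2afx and H1fx are highest in mESCs, H2afz is highest in iPSCs, H2afv is at 60.0 FPKM or above in the SSEA-1+ cells and both end points, and H1f0 is at 32.2 FPKM or below in D3, D16S+, iPSCs and mESCs, while all intervals of a gene overlap.

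On the successful route H1f0 lay between 64.3 and 80.0 FPKM from day 6 to day 12. From D12S+ to D16S+ it was lower by 1.17 on the log2 scale, the 1 of 7 genes past 2-fold where 8.91% of all genes were, and from D0 to iPSCs by 1.79. The ratio of H1f0 to H1fx, both in FPKM, was 3.80 in D0, 2.87 in D3, 2.62 in D6T-, 5.43 in D9T-, 2.16 in D12S+, 0.995 in D16S+, 0.589 in iPSCs and 0.410 in mESCs. In the unsuccessful fractions it stayed between 4.90 in D9T+ and 6.36 in D16S-. An early dip was also present: in D3, H1f0 was 1.46 and H1fx 1.01 below D0, the latter 0.76 with equal totals. H1fx shares 213 exonic bases (20.1%) with Gm5577 on the other strand, a gene under 1 FPKM in every library.

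Next, the 7 genes were compared between time points. In D3 against D0, H1f0, H2afy2, H2afv and H1fx were lower and 0 were higher, which is 4 of 7 where 14.4% of all genes passed 2-fold in either direction and 8.67% were lower. With equal totals H1f0 alone of the 7 passed, and the share of all genes was again 14.4%. In D16S+ against D0, H2afv was higher and H2afy2 and H1f0 were lower, 3 of 7 against 40.9% of all genes, and with equal totals H2afy and H2afv were higher and H2afy2 lower, against 42.9%. In D16S- against D0, H2afy2 (-1.94), H2afx (-1.28) and H1fx (-1.02) were lower and 0 were higher, 3 of 7 against 24.3% in either direction and 11.4% lower. Of these H2afy2 alone passed with equal totals, against 23.8%. The share of the variants past 2-fold in D16S+ was thus near that of all genes, and the counts in D3 and D16S- depend on the scaling. They fell with equal totals. Scaled instead by the median ratio of the genes to their geometric mean over the libraries (median of ratios), they stayed at 4 in D3 and 3 in D16S-.

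In iPSCs against D0, both H2A.Z genes and the H2A.X gene were higher, and 1 macroH2A gene and 1 linker histone gene were lower. H2afz (1.47), H2afv (1.32) and H2afx (1.31) were higher and H1f0 (-1.79) and H2afy2 (-1.03) were lower, 5 of 7 where 40.3% of all genes passed. H1fx (0.83) and H2afy (-0.61) did not pass. With equal totals, 4 were higher, H1fx (1.06) among them, and H1f0 alone was lower, against 40.8% of all genes. In mESCs against D0, H2afx (2.24), H1fx (1.85), H2afv (1.64) and H2afz (1.05) were higher and H1f0 (-1.29) was lower, again 5 of 7, against 42.6%. Between the pluripotent end points, H1fx was 1.02 lower in iPSCs than in mESCs, 1 of 7 against 14.2% of all genes, and with equal totals (-0.90) 0 of 7 passed against 14.0%. H2afx and H2afy were each at -0.94, and H2afz at 0.42, in the same comparison. The 2-fold counts of iPSCs and mESCs share the D0 library.

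The sorted fractions of the same day were set side by side to compare the successful with the unsuccessful route, 1 library each and with overlapping intervals throughout. Over 4 days and 7 genes, 9 of 28 differences passed 2-fold. At day 6, H1fx (1.08) and H2afz (1.06) were higher in D6T- than in D6T+, 2 of 7 against 12.4% of all genes in either direction and 2.93% higher. At day 9, 0 of 7 passed against 8.26%, with differences from -0.40 for H2afy2 to 0.40 for H2afy.

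At day 12, H2afx (1.26), H1fx (1.06) and H2afv (1.04) were higher in the SSEA-1+ cells and 0 were lower, 3 of 7 against 7.81% of all genes in either direction and 4.79% higher. At day 16 these genes were again higher, by 1.72 for H2afx, 1.51 for H1fx and 1.36 for H2afv, while H1f0 was lower by 1.05, 4 of 7 against 27.0% in either direction and 11.8% higher. With equal totals H1f0 was lower by 0.94 and did not pass, which left 3 of 7 against 27.8%. Neither macroH2A gene passed on any of the 4 days: H2afy lay between 0.36 and 0.52 and H2afy2 between -0.40 and 0.35.

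**Figure D2:**
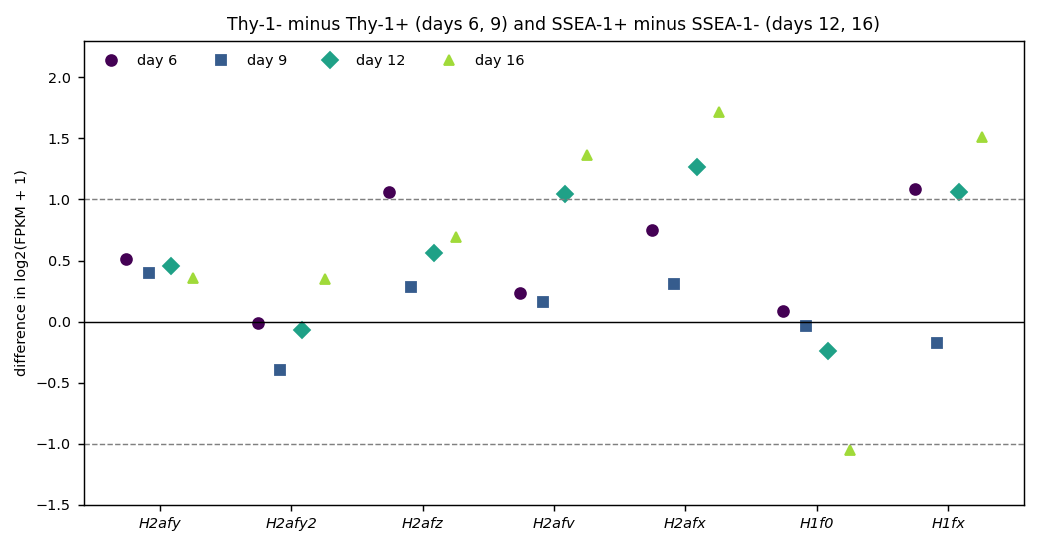
Difference in log2(FPKM + 1) between the sorted fractions of one day (Thy-1- minus Thy-1+ on days 6 and 9, SSEA-1+ minus SSEA-1- on days 12 and 16) for each gene, 1 library per fraction, with dashed lines at 2-fold. H2afx, H1fx and H2afv lie above the upper line on days 12 and 16, and H1f0 lies at -1.05 on day 16.

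Cell division genes also differed between the fractions. Of 15 such genes, 14 were higher in D16S+ than in D16S- where 11.8% of all genes were, with a median difference of 2.01 against -0.02 over all genes. In D12S+ against D12S-, 8 were higher where 4.79% of all genes were. In D9T- against D9T+, where 0 of the 7 variants passed, 3 were higher and 0 lower, with a median of 0.76. There 8.26% of all genes passed in either direction. In D6T- against D6T+, 2 were higher and 0 lower (median 0.67), where 2.93% of all genes were higher. The median log2 level of the 15 genes was 6.55 in D16S+ and 4.42 in D16S-. It lay between 4.42 and 5.52 in D0, D3, D6T-, D9T- and the unsuccessful fractions. Over the 12 libraries, that median was correlated with the log2 level of each gene. The values were r = 0.86 and rho = 0.87 for H1fx, r = 0.84 and rho = 0.83 for H2afx and r = 0.79 and rho = 0.71 for H2afv. They were r = 0.64 and rho = 0.67 for H2afz and r = -0.56 and rho = -0.38 for H1f0. For the macroH2A genes they were r = 0.22 and rho = 0.30 (H2afy) and r = 0.23 and rho = 0.28 (H2afy2). These values are a description over libraries that run from fibroblasts through mixed sorted fractions to pluripotent cells. The part of cell division in the differences was not tested. Some markers of other cell types also differed. Summed over 4 keratinocyte markers the level was 240 FPKM in D16S- and 6.98 to 185 FPKM in the other libraries. Most of it was Sfn (194 FPKM in D16S-, 176 in D16S+ and 180 in iPSCs). The other 3 markers were at least 2-fold lower in D16S+ than in D16S-, where 27.0% of all genes passed in either direction. Krt14 was at 8.24 FPKM in D16S+ and 39.9 in D16S-, Krt6a at 1.08 and 4.22, and Krt5 at 0.312 and 1.64. Over 6 leukocyte markers the sum was 146 FPKM in D16S- and 14.7 to 82.2 FPKM elsewhere, and most of it was Cd68 (115 FPKM in D16S-). The other leukocyte markers except Csf1r were highest in D0, with Lyz2 at 9.47 FPKM in D0 and 0.509 in D16S-. The defining markers Ptprc and Trp63 were under 1 FPKM in all 12 libraries, and the part of such cells in the differences was not tested.

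The make-up of the H2A variant transcripts was then computed as a share of the summed FPKM of the 5 H2A genes. MacroH2A held 30.2% in D0, 22.3% in D3, 23.3% in D6T-, 27.7% in D9T-, 26.6% in D12S+ and 27.9% in D16S+, then 8.93% in iPSCs and 14.1% in mESCs. In the unsuccessful fractions it held 30.0% in D6T+, 27.1% in D9T+, 31.3% in D12S- and 38.1% in D16S-. The low share of the end points was thus not yet present in the SSEA-1+ cells of day 16. Both parts of the ratio differed. The summed level of the 5 genes was 456 FPKM in D0, 624 in D16S+, 936 in iPSCs, 1118 in mESCs and 355 in D16S-. MacroH2A alone summed to 138 FPKM in D0, 174 in D16S+, 83.6 in iPSCs, 157 in mESCs and 135 in D16S-. The lower share in mESCs thus came with a macroH2A sum above that of D0.

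H2A.Z held 47.6% of the sum in D0, 64.1% in iPSCs and 42.7% in mESCs. H2A.X held 22.2% in D0, 22.1% in D16S+, 27.0% in iPSCs and 43.2% in mESCs, and between 11.4% and 11.6% in D9T-, D9T+, D12S- and D16S-. H2A.Z thus held the larger share of the remainder in iPSCs, and in mESCs H2A.Z and H2A.X held nearly equal shares, each from 1 library. These shares cover 5 transcripts per length and say nothing of protein or of canonical H2A. Messages of H2afx without a poly(A) tail and multiply mapped reads of H2afz may be missing from them, by amounts that were not measured.

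**Figure D3:**
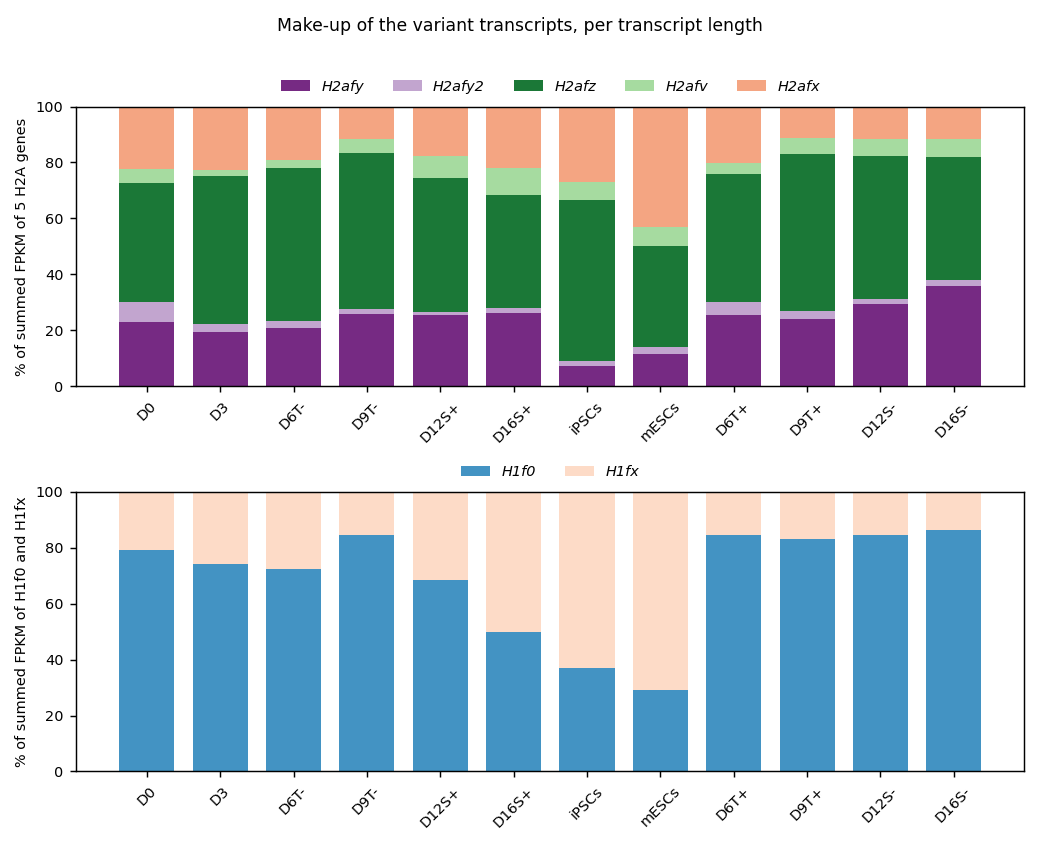
Share (%, bars from 0 to 100) of each gene in the summed FPKM of the 5 H2A variant genes, above, and of H1f0 and H1fx in their own sum, below, in the 12 libraries. MacroH2A (H2afy and H2afy2) takes 8.93% in iPSCs and 14.1% in mESCs against 22.3% or more elsewhere, and H1fx takes 50.1% or more of its pair in D16S+, iPSCs and mESCs.

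Other histone genes of the same families were read from a fixed list. Of 9 other linker histone genes, 5 reached 1 FPKM, and in iPSCs against D0 2 of them were lower and 1 higher, with a median of -0.68, where 40.3% of all genes passed 2-fold. Hist1h1c, which encodes the somatic linker histone H1.2, went from 87.0 FPKM in D0 to 6.88 in D16S+, 8.78 in iPSCs and 6.99 in mESCs, against 29.9 in D16S-. It thus ran with H1f0 in the end points, and at day 16 it was lower in the SSEA-1+ fraction by 1.97. Of 21 other H2A genes, 10 reached 1 FPKM, and 3 were lower and 1 higher in iPSCs, close to the share of all genes. Hist3h2a was at 39.2 FPKM in D0 and 3.83 in iPSCs. Hist1h1c and Hist3h2a are replication-coupled genes, so these libraries hold only the part of their messages with a poly(A) tail. A difference in that part cannot be told apart here from a difference in the level of all their messages. H2afj, which encodes the H2A.J variant known from senescent and secretory cells, was at 112 FPKM in D0, 11.8 in D16S+, 28.3 in iPSCs, 45.9 in mESCs and 22.0 in D16S-, so it was low in both late fractions.

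**Figure D4:**
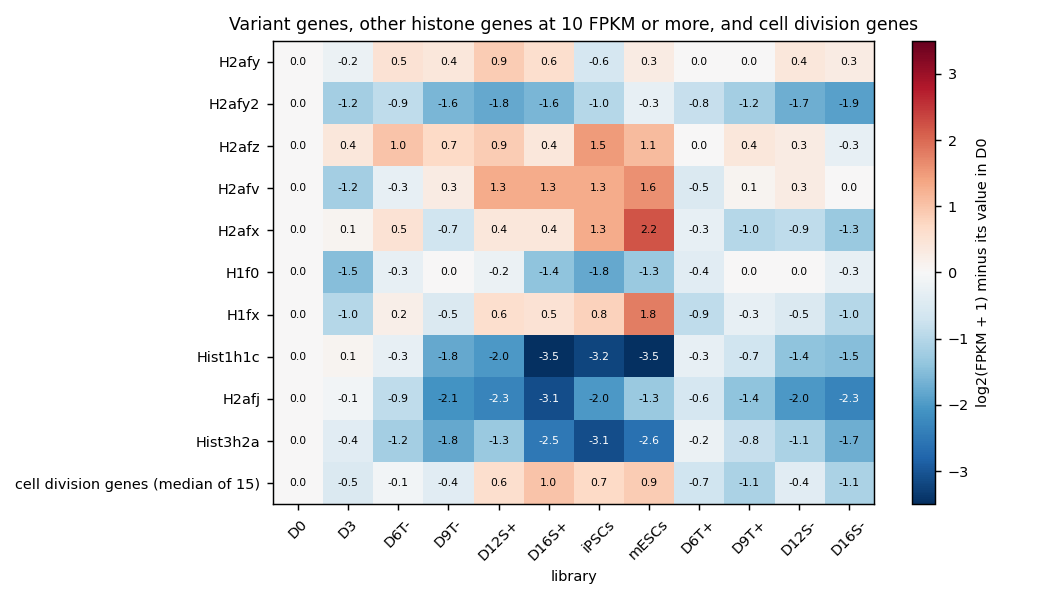
Log2(FPKM + 1) of the 7 variant genes, of the 3 other histone genes that reached 10 FPKM and of the median of 15 cell division genes, each minus its own value in D0, in the 12 libraries. Hist1h1c, H2afj and Hist3h2a are all lower than D0 in iPSCs and mESCs, H2afz, H2afv, H2afx and H1fx all have values above 0 there (H1fx in iPSCs under 2-fold), and H1f0 is lower there and near D0 in the unsuccessful fractions.

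The machinery of H2A.Z was examined beside its genes. Of 8 measured subunits of the SRCAP complex, which places H2A.Z in nucleosomes, 3 were higher in iPSCs than in D0 and 0 lower, with a median of 0.41 against 0.03 over all genes. The share past 2-fold, 3 of 8, is near the 40.3% of all genes in this comparison. Actl6a, an actin-like subunit shared with other remodellers, went from 26.1 to 104 FPKM. The ATPases Ruvbl2 and Ruvbl1, also shared, went from 102 to 291 FPKM and from 35.5 to 72.3 FPKM. Between the SSEA-1 fractions of day 16, Actl6a was also higher in the positive cells (87.2 FPKM and 16.9 FPKM). Vps72, the H2A.Z chaperone subunit specific to these complexes, was at 76.1 FPKM in D0 and 74.7 in iPSCs. Of 11 genes of the TIP60-p400 complex, 2 were higher and 0 lower in iPSCs, a smaller share than the 40.3% of all genes, among them the bromodomain subunit Brd8 (13.9 and 42.3 FPKM). Of 4 genes linked to removal of H2A.Z, 1 passed, the remodeller Ino80 (8.40 and 18.4 FPKM), and the chaperone Anp32e was at 27.6 and 43.8 FPKM.

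Kinases, readers and phosphatases of H2A.X gave 4 higher and 1 lower of 15 in iPSCs against D0, where 40.3% of all genes passed, and the same counts in D16S+ against D16S-, where 27.0% did. The ubiquitin ligase pair Brca1 and Bard1 went from 3.01 to 11.9 FPKM and from 0.854 to 6.39 FPKM. Mdc1, the reader of phosphorylated H2A.X, went from 7.38 to 19.9 FPKM and at day 16 was at 38.7 FPKM in SSEA-1+ and 10.4 FPKM in SSEA-1- cells. Eya2, a phosphatase, was lower (1.85 and 0.138 FPKM).

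Of 6 regulators and partners of macroH2A, 3 were higher and 2 lower in iPSCs, against 40.3% of all genes past 2-fold. Parp1, whose product is bound by macroH2A, went from 51.8 to 302 FPKM and the helicase Hells from 1.20 to 11.8 FPKM. Atrx, which binds macroH2A, went from 1.77 to 7.55 FPKM. The ubiquitin ligase adaptor Spop (41.0 and 16.7 FPKM) and Parp9 (9.50 and 3.16 FPKM) were lower. In mESCs against D0, 2 of the 6 were higher and 2 lower, against 42.6% of all genes, and Atrx was at 1.18 FPKM in mESCs. Of 11 chaperones of H1 and HMG proteins that compete with it, 3 were higher and 3 lower in iPSCs than in D0, against the same 40.3%. The H1 chaperone Nasp went from 30.9 to 138 FPKM and Hmgb2 from 25.6 to 95.3 FPKM, while Hmgn3 went from 51.2 to 4.07 FPKM and Hmga2 from 96.5 to 15.9 FPKM. Of 3 measured H2A-H2B chaperones, Nap1l1 passed 2-fold (66.8 and 142 FPKM). Srcap and Supt16h were not analysed here.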

How the data were processed

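Expression was measured by mRNA-Seq in 12 libraries, 1 per condition, grouped by their titles. The authors prepared TruSeq libraries (a stranded mRNA kit per the labels, a TruSeq RNA kit with no mention of strand in the methods of the study), mapped reads to mm9 with STAR, removed reads with more than 2 mismatches or more than 1 locus, and deposited FPKM from cuffdiff with an interval for each value. Tool versions, annotation and library scaling are not given in the sources used here, and total fragments were not used, so absolute depth is unknown. A further 12 columns of status words were not used. Removal of multiply mapped reads lowers genes with near-identical copies.

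Values were analysed as log2(FPKM + 1), which understates changes of low genes, with a minimum of 1 FPKM in 1 library, a threshold of 2-fold and no test. Functions were tested on simulated data. Alternatives were a pseudocount of 0.1, no filter, scaling to the same total or by the median of ratios, and thresholds of 1.5-fold and 4-fold. The genes and lists were chosen with earlier results of these data known. Named genes are the 7 variants, up to 4 per list with the largest absolute difference between iPSCs and D0 or D16S+ and D16S-, and the 3 genes most correlated with each variant. Vps72, Anp32e, Spop and the markers Ptprc, Trp63, Sfn, Krt14, Krt6a, Krt5, Thy1, Cd68, Csf1r and Lyz2 were named outside that rule, after their values were seen. Positions are 1-based (mm9, GENCODE M1). Copies were searched with blastn 2.17.0 (at least 95% identity over 100 bases). H1f0 has no coding transcript in that annotation, so its copies were not searched.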

Additional observations from a re-analysis of the deposited data

How the results depend on the processing

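The counts of variant genes past 2-fold were recomputed under each alternative. With all libraries scaled to the same total, 1 gene passed in D3 against D0, 1 in D16S- against D0 and 0 in iPSCs against mESCs. At a 4-fold threshold, 0 passed in D3, D16S+, D16S- and iPSCs against D0, 0 in iPSCs against mESCs and 0 between the sorted fractions. At a 1.5-fold threshold, 4 passed in iPSCs against mESCs. The comparison of mESCs with D0 was not among these counts, and H2afx alone (2.24) passed 4-fold in it. Shares of all genes past 1.5-fold and 4-fold were not computed, so the counts at these thresholds stand without that comparison. At the lower ends of the deposited intervals, the macroH2A share of D0 was 0%. Of 588 recomputed single differences, 14 crossed 2-fold, all by scaling to the same total, 13 changed sign without being called, and the largest shift was 0.42 on the log2 scale. With a pseudocount of 0.1 no difference crossed 2-fold, and a pseudocount cannot change the sign of a difference. All variant genes passed the filter, so leaving it out could not change their differences. The 147 values of that setting, counted among the 588, equal the main values and are no check of them. No replicate block was fitted, since the labels give no replicate numbers, and the same-day fractions of 4 days are 4 conditions under different sorting markers, not replicates of 1. With intervals whose lower end is often 0 and an unknown absolute depth, none of the differences is separated from the modelled error of single libraries.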

Other observations

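The genes whose log2 level followed each variant most closely over the 12 libraries were searched among 8804 genes with at least 10 FPKM in 1 library. Each is the highest of many correlations, and all points share the same 12 libraries, so the values are a description. H2afy ran closest with Smarcd2, a subunit of the BAF remodelling complex (r = 0.95, rho = 0.94), followed by Tomm34 and Lhpp. H2afy2 ran closest with Ostc (r = 0.95, rho = 0.95), followed by 2810428I15Rik and Oaz1-ps. H2afz ran closest with Ddx46 (r = 0.95, rho = 0.96), followed by Trmt1 and Naca.

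H2afv was closest to the zinc finger gene Zfp740 (r = 0.98, rho = 0.93), then Mutyh and Wdr34. Zfp740 was at 25.9 FPKM in D0, 50.4 in D12S+, 44.7 in D16S+ and 49.6 in iPSCs. H2afx was closest to Ppil1 (r = 0.98, rho = 0.95), then Snrpa and Prcc. Ppil1 was at 81.1 FPKM in D0, 138 in iPSCs, 172 in mESCs and 37.0 in D16S-. H1f0 was closest to Plekhh3 (r = 0.95, rho = 0.87), then Ptms and 1110051M20Rik. Ptms, the parathymosin gene, was at 560 FPKM in D0, 233 in D16S+ and 179 in iPSCs. H1fx was closest to the mitochondrial ribosome gene Mrpl2 (r = 0.97, rho = 0.97), then Chtop and Haus4. Among the variants themselves, H2afx and H1fx had r = 0.88 and rho = 0.80, H2afv and H1fx r = 0.84 and rho = 0.78, and H2afx and H1f0 r = -0.69 and rho = -0.64.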
